A study of Homo sapiens with 6 samples.

Results

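The Notch genes described here are the receptors NOTCH1, NOTCH2 and NOTCH3, the ligands JAG1, JAG2 and DLL1, and the target genes HES1, HES4, HEY1 and NRARP. These 10 genes were taken by name from the 20824 genes listed in the deposited tables, and all 10 were listed in all 6 libraries. RNA captured on oligo-dT beads came from A549, an established line of human lung adenocarcinoma, in 2 groups of 3 libraries. The knockdown group carried an shRNA against C19orf12, and the scramble group, labelled as the wild-type control, carried a scrambled shRNA. C19orf12 encodes a membrane protein of mitochondria and the endoplasmic reticulum. The titles name a single shRNA against C19orf12, so what it does through C19orf12 and what it does through other transcripts cannot be told apart. Nothing in the labels says whether libraries of a group came from separate cultures, so each p-value reflects only library-to-library spread, which may be technical.

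Notch receptors are transmembrane proteins that are activated by ligands of the Jagged and Delta families on neighbouring cells. Binding leads to cleavage of the receptor by ADAM proteases and then by gamma-secretase, and the freed intracellular domain enters the nucleus, where it joins the DNA-binding protein RBPJ and a Mastermind co-activator. Genes of the HES and HEY families, which encode transcriptional repressors, and NRARP, which encodes an inhibitor of the nuclear complex, are widely used readouts of this step. In the airway epithelium Notch signalling is known for favouring secretory over ciliated cells.

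Library totals ran from 10229890 to 10647587 estimated counts. C19orf12 stood at 24.2, 26.4 and 25.2 CPM in knockdown replicates 1, 2 and 3, against 42.5, 41.1 and 63.3 CPM in scramble replicates 1, 2 and 3. CPM here are counts relative to library totals scaled by TMM. C19orf12 fell, with a log2 fold change of -0.95 (SE 0.20, adjusted p = 0.015 by edgeR's quasi-likelihood test), a call that was lost when any knockdown library was left out (adjusted p = 0.0755 to 0.0908). Without scramble replicate 3, described next, it was -0.73 (adjusted p = 3.17e-08). Scramble replicate 3 departed from the other libraries, with a correlation of log2 CPM across genes of 0.954 and 0.955 with its fellow scramble libraries, which correlated at 0.993 with each other. Results are therefore also given without it. Of 5 epithelial markers 4 were listed in all libraries, with summed FPKM of 5990 to 6090 in knockdown and 2000 to 2720 in scramble libraries, nearly all of it from KRT8 and KRT18. The 4 alveolar type 2 markers summed to 1.31 to 2.12 FPKM in knockdown and 1.49 to 1.85 FPKM in scramble libraries, with NKX2-1 and SFTPC at or near 0. The 5 fibroblast markers, mostly COL1A1, summed to 4.06 to 4.46 FPKM in knockdown and 6.53 to 7.72 FPKM in scramble libraries. Endothelial markers summed to 0.48 to 0.58 FPKM in knockdown and 0.40 to 0.62 FPKM in scramble libraries. Blood cell markers summed to 1.19 to 1.66 FPKM in knockdown and 0.69 to 1.32 FPKM in scramble libraries. TEK and CD3E were among the markers that were not listed. The part of these markers in the results was not tested. In bulk RNA a smaller share of expressing cells and less RNA per cell cannot be told apart.

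Among the receptors, NOTCH3 rose and NOTCH1 fell in the knockdown libraries. NOTCH3 measured 705, 687 and 701 CPM in knockdown replicates 1, 2 and 3, against 367, 384 and 548 CPM in scramble replicates 1, 2 and 3. Every knockdown library lay above every scramble library, and scramble replicate 3 lay between those 2 sets. In deposited FPKM, which are scaled for transcript length, NOTCH3 averaged 83.3 ± 1.20 in knockdown and 53.6 ± 9.82 in scramble libraries (SD, n = 3 each). On the CPM scale this was a log2 fold change of 0.69 (SE 0.18, adjusted p = 0.034 by edgeR). NOTCH1 had 28.4, 24.3 and 25.4 CPM in knockdown libraries, against 37.6, 36.2 and 48.4 CPM in scramble libraries. The groups did not overlap, and scramble replicate 3 was again the highest of its group. The means were 26.0 ± 2.14 CPM in knockdown and 40.7 ± 6.68 CPM in scramble libraries (SD, n = 3 each), a log2 fold change of -0.65 (SE 0.18, adjusted p = 0.0449 by edgeR).

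NOTCH2 did not pass the test with all 6 libraries. It measured 130, 114 and 118 CPM in knockdown and 137, 140 and 136 CPM in scramble libraries. Scramble replicate 3 did not stand out for this gene, and the groups did not overlap, but the distance between them was small. By edgeR NOTCH2 had a log2 fold change of -0.19 (SE 0.14, adjusted p = 0.462) with all libraries. When scramble replicate 3 was dropped, it was -0.20 (SE 0.05, adjusted p = 0.00301). NOTCH2 shares near-identical sequence with its partial copy NOTCH2NLA, and its estimated counts were not whole numbers, so they depend on how reads were divided. NOTCH2 held 88.3%, 88.2% and 88.7% of the summed estimated counts of this pair in knockdown libraries, against 88.2%, 85.9% and 91.6% in scramble libraries, so the groups overlapped in this share.

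**Figure D1:**
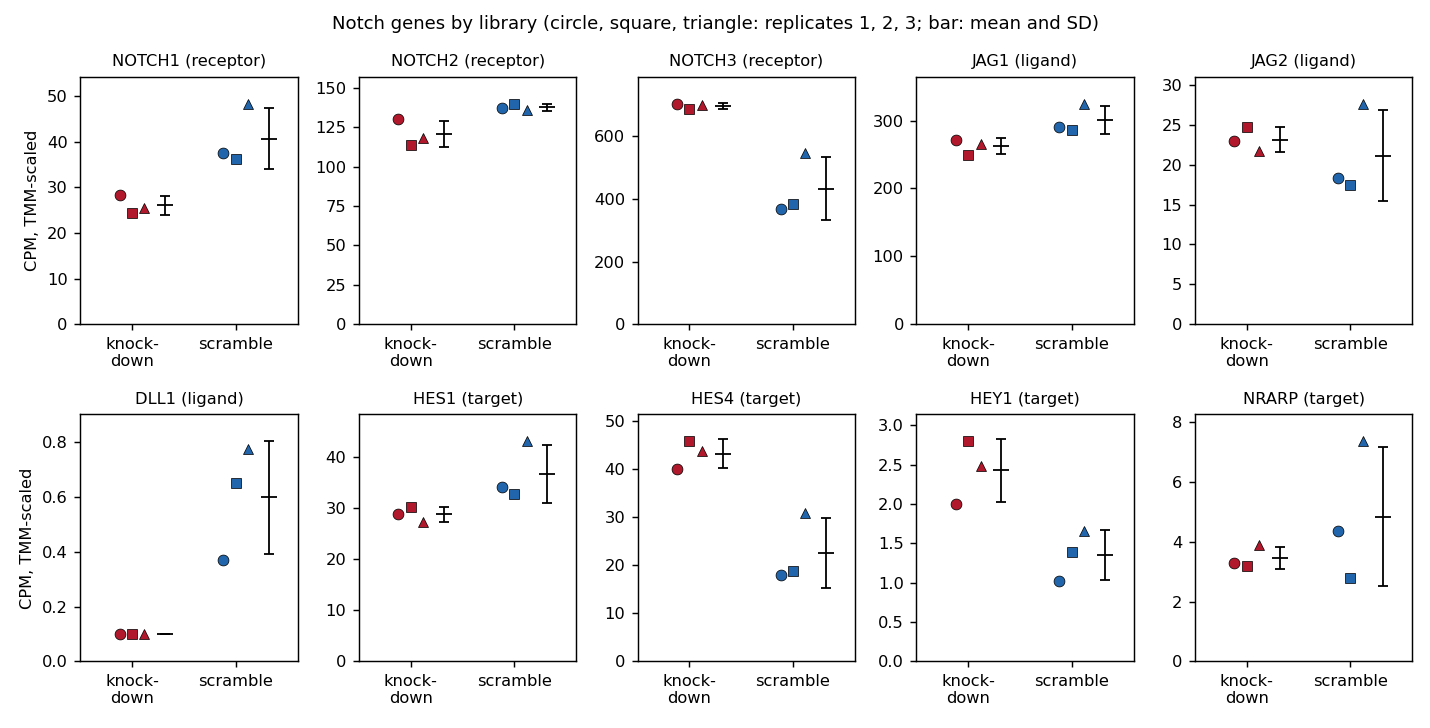
TMM-scaled CPM (y axis, from 0) of the 10 Notch genes in each knockdown library (red) and scramble library (blue), with group mean and SD as bars. NOTCH3 and HES4 are higher and NOTCH1 lower in every knockdown library, and scramble replicate 3 (blue triangle) is the highest scramble library for each gene other than NOTCH2.

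JAG1 had the highest FPKM of the ligand genes and did not pass the test with all 6 libraries. Its level was 272, 249 and 265 CPM in knockdown libraries, against 291, 286 and 325 CPM in scramble libraries. All knockdown libraries lay below all scramble libraries. Its fold change on the log2 scale was -0.20 by edgeR (SE 0.14, adjusted p = 0.421). Dropping scramble replicate 3 gave -0.14 (SE 0.04, adjusted p = 0.00674). JAG2, a second Jagged ligand, had 23.0, 24.8 and 21.7 CPM in knockdown and 18.3, 17.5 and 27.7 CPM in scramble libraries. Here scramble replicate 3 lay above and scramble replicates 1 and 2 below all knockdown libraries. The log2 fold change of JAG2 was 0.13 (SE 0.21, adjusted p = 0.76 by edgeR) with all libraries and 0.37 (SE 0.10, adjusted p = 0.00285) without scramble replicate 3, so the size of this difference rests on that library.

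DLL1, a Delta-type ligand, was close to the detection limit and did not pass the filter on low counts. Tested without that filter by edgeR, it was not called. It was listed with 1 estimated count in each knockdown library and with 4, 7 and 8 estimated counts in scramble replicates 1, 2 and 3. The groups did not overlap, but the summed counts were only 3 in knockdown and 19 in scramble libraries. Their ratio, corrected for library totals, was 0.161, with an exact 95% binomial interval from 0.0304 to 0.545 that covers counting error only. Against scramble replicates 1 and 2 alone the ratio was 0.183, with an interval from 0.0328 to 0.692.

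HES4 rose and was the target gene with the largest fold change of the 4, whereas HES1, the best known of them, did not pass the test. HES4 had 39.9, 45.8 and 43.8 CPM in knockdown libraries, against 17.9, 18.8 and 30.9 CPM in scramble libraries. The knockdown libraries all lay above the scramble libraries, and scramble replicate 3 was nearest to them. The means were 43.2 ± 3.01 CPM in knockdown and 22.5 ± 7.26 CPM in scramble libraries (SD, n = 3 each), a log2 fold change of 0.94 (SE 0.23, adjusted p = 0.0267 by edgeR). HES1 had 28.8, 30.2 and 27.2 CPM in knockdown libraries, against 34.0, 32.8 and 43.1 CPM in scramble libraries. Its groups did not overlap either, with the knockdown libraries below, but the log2 fold change of -0.35 (SE 0.17) had an adjusted p of 0.238 by edgeR. Without scramble replicate 3 it was -0.22 (SE 0.08, adjusted p = 0.0239).

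HEY1 and NRARP were measured at low levels. HEY1, a repressor related to the HES proteins, had 2.00, 2.80 and 2.48 CPM in knockdown and 1.02, 1.39 and 1.65 CPM in scramble libraries. Its knockdown libraries all lay above its scramble libraries, at 20 to 28 against 11 to 17 estimated counts. By edgeR HEY1 had a log2 fold change of 0.84 (SE 0.29, adjusted p = 0.0963). Dropping scramble replicate 3 gave 1.00 (SE 0.34, adjusted p = 0.0186). NRARP had 3.30, 3.20 and 3.87 CPM in knockdown and 4.37, 2.78 and 7.36 CPM in scramble libraries. The groups overlapped and scramble replicate 3 was far above the rest. NRARP had a log2 fold change of -0.48 by edgeR (SE 0.34, adjusted p = 0.429), against -0.05 (SE 0.25, adjusted p = 0.895) when that library was dropped.

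The promoters of HES1 and HES4 are shown because, of the Notch genes searched, these 2 held GTGGGAA, core letters of the sites that RBPJ binds. The windows run from 250 bases before to 50 bases after the gene start in RefSeq (GRCh38.p14), at chr3:194135898-194136197 on the plus strand for HES1 and at chr1:1000048-1000347 on the minus strand for HES4. Both are written 5′ to 3′ on the strand of the gene, and capitals mark GTGGGAA and TTCACAC.
HES1: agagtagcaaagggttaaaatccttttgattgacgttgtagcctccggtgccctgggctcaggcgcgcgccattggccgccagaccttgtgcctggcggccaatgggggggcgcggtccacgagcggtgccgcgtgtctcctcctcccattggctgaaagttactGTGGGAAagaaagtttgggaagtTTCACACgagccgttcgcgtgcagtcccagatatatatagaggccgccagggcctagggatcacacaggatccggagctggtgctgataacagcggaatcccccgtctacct
HES4: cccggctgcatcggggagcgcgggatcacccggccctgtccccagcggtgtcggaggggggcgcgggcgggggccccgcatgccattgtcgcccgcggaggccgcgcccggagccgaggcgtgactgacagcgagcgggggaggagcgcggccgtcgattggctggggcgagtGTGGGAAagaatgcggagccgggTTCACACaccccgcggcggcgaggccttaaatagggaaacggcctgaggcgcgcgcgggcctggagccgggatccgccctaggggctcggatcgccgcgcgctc

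GTGGGAA begins 85 bases before the start in HES1 and 77 bases before it in HES4, on the gene's own strand in both. In both windows TTCACAC follows after a gap of 16 bases, beginning 62 bases before the start in HES1 and 54 bases before it in HES4. GTGGGAA was searched on both strands and occurred in 6.25% of the 35116 RefSeq windows of the same length, and GTGAGAA, the other form searched, in 4.45%. TTCACAC occurred on either strand in 3.0% of windows. The pair with a gap of 15 to 17 bases, on either strand, was found in 2 of the 35116 windows, those of HES1 and HES4. This pair was searched for after both windows had been read. Of the 8 Notch genes with a window, the other 6 (NOTCH1, NOTCH2, NOTCH3, JAG1, JAG2 and NRARP) held neither GTGGGAA nor GTGAGAA. For DLL1 and HEY1 no window was used. The windows were rich in GC, with 59.0% for HES1, 75.7% for HES4 and 68.7% to 79.7% for the other 6.

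Levels of different genes were compared by deposited FPKM. In knockdown libraries NOTCH3 was the highest of the 10 with 83.3 ± 1.20 FPKM, followed by HES4 with 42.7 ± 2.97, JAG1 with 42.3 ± 1.98, HES1 with 19.2 ± 0.946 and NOTCH2 with 10.2 ± 0.68 FPKM (SD, n = 3 each). JAG2 with 3.83, NOTCH1 with 2.70, NRARP with 1.28, HEY1 with 1.02 and DLL1 with 0.03 FPKM followed. HES4 and JAG1 overlapped in knockdown libraries, and so did NRARP and HEY1. In scramble libraries NOTCH3 with 53.6 ± 9.82 FPKM and JAG1 with 50.6 ± 1.31 FPKM overlapped at the top, followed by HES1 with 25.4 ± 2.71 and HES4 with 22.8 ± 6.33 FPKM, which also overlapped (SD, n = 3 each). NOTCH2 had 12.1, NOTCH1 4.38, JAG2 3.63, NRARP 1.84, HEY1 0.593 and DLL1 0.177 FPKM, and of these only NOTCH1 and JAG2 overlapped as neighbours. HES4 thus stood above HES1 in each knockdown library, whereas in scramble libraries it was below HES1 in replicates 1 and 2 and above it in replicate 3.

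Ratios of FPKM within a library do not depend on how libraries are scaled, but their genes can differ in GC content of the transcripts. It was 63.1% for NOTCH3 and 62.9% for NOTCH1, 74.0% for HES4 and 49.9% for HES1, and 49.6% for JAG1 and 64.2% for JAG2. The departure of scramble replicate 3 varied with GC content, as given below. Its part in these ratios was not tested. NOTCH3 over NOTCH1 was 28.6, 32.6 and 31.8 in knockdown libraries, against 11.2, 12.2 and 13.1 in scramble libraries (ratios of FPKM). Scramble replicate 3 was close to its group for this ratio, and the groups were far apart, with means of 31.0 ± 2.13 in knockdown and 12.2 ± 0.912 in scramble libraries (SD, n = 3 each). NOTCH3 made up 85.9%, 87.1% and 87.0% of the summed FPKM of the 3 receptors in knockdown libraries, against 74.0%, 74.7% and 79.9% in scramble libraries. The summed receptor FPKM, which does depend on scaling, was 98.0, 94.1 and 96.5 in knockdown libraries, against 63.1, 65.9 and 81.1 in scramble libraries. The share of NOTCH1 was 3.00%, 2.67% and 2.73% in knockdown and 6.58%, 6.10% and 6.12% in scramble libraries.

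HES4 over HES1 was 2.05, 2.25 and 2.38 in knockdown libraries, against 0.777, 0.830 and 1.06 in scramble libraries, again without overlap. JAG1 over JAG2 was 11.5, 9.81 and 11.9 in knockdown libraries and 15.5, 15.9 and 11.5 in scramble libraries, so here scramble replicate 3 lay among the knockdown libraries. These ratios were chosen after the values were seen and are given as a description, with no test. A ratio shows unequal change of its genes, not which of them moved.

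**Figure D2:**
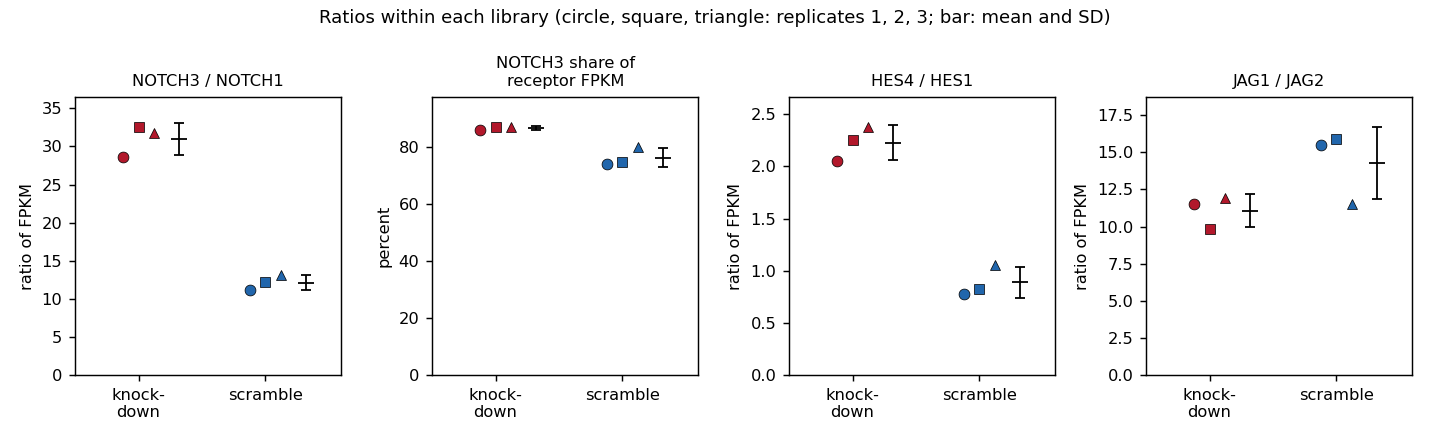
Ratios of deposited FPKM, and the NOTCH3 share of receptor FPKM in percent, within each knockdown library (red) and scramble library (blue), with group mean and SD as bars and all y axes from 0. The NOTCH3 to NOTCH1 ratio is 28.6 to 32.6 in knockdown and 11.2 to 13.1 in scramble libraries, whereas JAG1 over JAG2 overlaps between the groups.

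Of the 10 Notch genes 9 passed the filter on low counts, all but DLL1. By edgeR 3 of the 9 were called, against 11.5% of the 14812 genes tested. NOTCH3 and HES4 rose, where 5.89% of all tested genes rose, and NOTCH1 fell, where 5.64% fell. The groups did not overlap for 7 of the 9, against 37% of all tested genes. For 3 of these 7 the knockdown libraries lay above (18.4% of all tested genes) and for 4 below (18.6%). The median log2 fold change of the 9 was -0.19, with 0.02 over all genes tested. Without scramble replicate 3, 4 of the 9 rose (25.7% of all tested genes) and 4 fell (23.8%), and NRARP did not pass. That count of 8 stands beside 49.5% of all 15029 genes tested in that setting, where edgeR's estimate of the biological coefficient of variation was 2.97%, against 18.9% with all libraries. The median of the 9 was then -0.05.

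The calls of NOTCH3, NOTCH1 and HES4 were lost when any library other than scramble replicate 3 was left out, with adjusted p-values of 0.113 to 0.141, 0.0631 to 0.223 and 0.0828 to 0.123 by edgeR. With scramble replicate 3 left out instead, the log2 fold changes were 0.89 for NOTCH3 (SE 0.03, adjusted p = 1.11e-15), -0.50 for NOTCH1 (SE 0.08, adjusted p = 1.76e-05) and 1.23 for HES4 (SE 0.09, adjusted p = 5.23e-11). NOTCH3 also missed the threshold with upper-quartile scaling (adjusted p = 0.0501), and NOTCH1 with no filter on low counts (adjusted p = 0.0545).

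**Figure D3:**
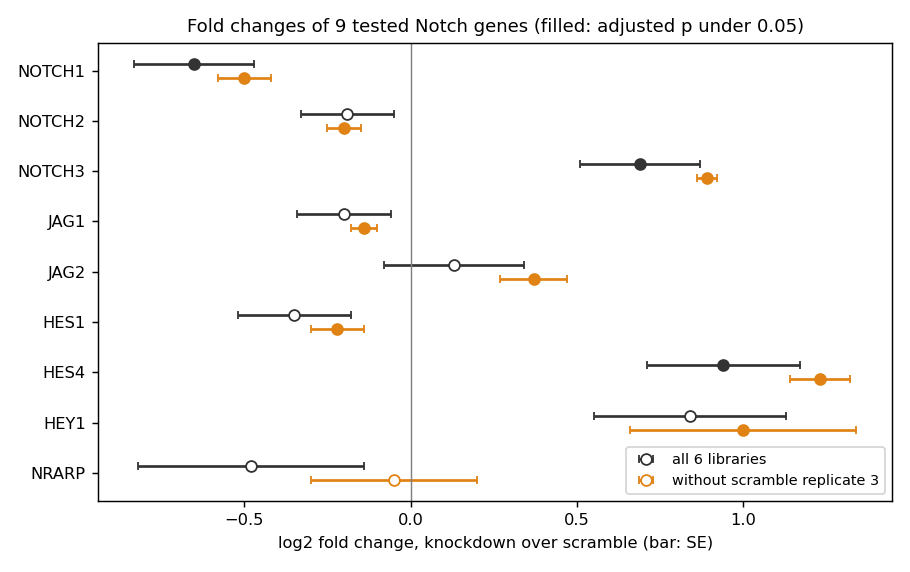
Log2 fold change of knockdown over scramble (x axis, bars are SE) for the 9 tested Notch genes, with all 6 libraries (black) and without scramble replicate 3 (orange), filled where the adjusted p was under 0.05. NOTCH3 and HES4 are above 0 and NOTCH1 below 0 in both fits, and all other genes keep their side of 0 as well.

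How far scramble replicate 3 lay from its group varied with the GC content of the transcripts. With all tested genes divided by GC content into 10 equal bins, NOTCH1, NOTCH3, JAG2, HES4 and NRARP fell in the top bin, 62.0% to 74.5% GC. There the median gene was 0.49 higher on the log2 scale in scramble replicate 3 than in scramble replicates 1 and 2. The 5 genes were higher in scramble replicate 3 by 0.39, 0.55, 0.61, 0.74 and 0.98, in the order named. NOTCH2, JAG1 and HES1, with GC contents of 49.4% to 49.9%, fell in a bin with a median of 0.31 and lay at -0.03, 0.17 and 0.36. HEY1 was higher by 0.34 in a bin with a median of 0.05, at few counts. The knockdown libraries differed from scramble replicates 1 and 2 by a median of 0.06 in the top bin.

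With a correction for GC content and transcript length, the fold changes of the called genes were as large. They were 0.71 for NOTCH3 (adjusted p = 0.00231), -0.65 for NOTCH1 (adjusted p = 0.00342) and 1.10 for HES4 (adjusted p = 3.5e-05) by edgeR. NOTCH2 (-0.33, adjusted p = 0.0345) and HES1 (-0.33, adjusted p = 0.012) also passed with this correction, so that 2 Notch genes were called higher and 3 lower. With the replicate number as a block beside the correction, NOTCH2 missed the threshold (adjusted p = 0.0673). Of 14231 genes tested, 4858 were called with the correction alone and 4175 with the block beside it.

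**Figure D4:**
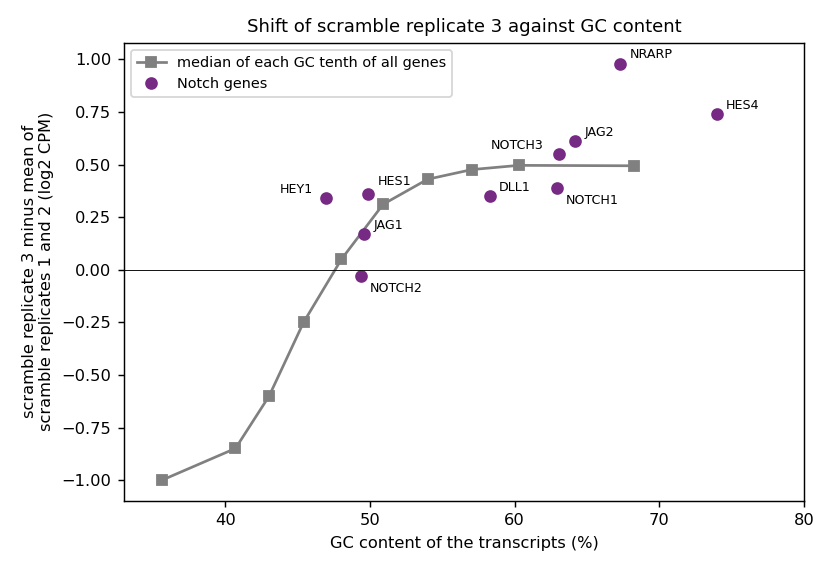
Scramble replicate 3 minus the average of its fellow scramble libraries (y axis, log2 CPM) against GC content of the transcripts (x axis, percent), for the 10 Notch genes (purple) and as the median of each of 10 GC bins of all tested genes (grey). The grey line climbs with GC content to 0.49 in the last bin, near which NOTCH1, NOTCH3 and JAG2 lie, with HES4 and NRARP above it.

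Mean transcript lengths, which RSEM weights by the abundance of a gene's transcripts, were nearly constant for the Notch genes. They were the same in all 6 libraries for 8 of the 10 genes. Of these, NOTCH1, NOTCH3, JAG1, DLL1, HES1 and NRARP had 1 deposited transcript each, so their lengths could not vary. NOTCH2 and JAG2 had 2 transcripts each. HEY1, with 3 transcripts, had 2319 bases in each library other than scramble replicate 3, with 2318.96 bases. HES4, with 2 deposited transcripts, had 1007.8, 1007.86 and 1011.27 bases in knockdown and 1012.03, 1028 and 1013.2 bases in scramble libraries. All 3 knockdown libraries lay below the scramble libraries, and scramble replicate 2 was the highest. This was not tested.

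Other genes of the pathway were grouped by role. Of 61 such genes 56 were listed and 51 were tested, and 4 rose and 4 fell (15.7%, against 11.5% of all genes tested), with a median log2 fold change of -0.05. With all 6 libraries, called genes were found among the HES and HEY family, the processing proteases, the co-repressors and the ubiquitin ligases, and none among the ligands, sugar transferases or the nuclear complex. Without scramble replicate 3, 13 rose and 16 fell of 51, or 56.9% against 49.5% of all genes tested.

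HES7, a HES family repressor known from the segmentation clock of the embryo, fell the furthest. It had 0.70, 1.20 and 0.596 CPM in knockdown libraries, against 4.18, 3.90 and 5.62 CPM in scramble libraries. The groups were clearly apart, at 6 to 12 estimated counts in knockdown and 42 to 58 in scramble libraries, and the gene passed the filter on low counts through its scramble libraries. HES7 had a log2 fold change of -2.44 (SE 0.32, adjusted p = 0.00134 by edgeR). The other 4 tested members of that group did not pass, among them HES6 (-0.29, adjusted p = 0.478) and HES2 (-0.07, adjusted p = 0.836). DLL3 and DLK2 were listed among the ligand genes, whether or not they activate receptors. DLL3 (-0.66, adjusted p = 0.106) and DLK2 (-0.56, adjusted p = 0.136) did not pass by edgeR, nor by DESeq2 or limma-voom, and both had an unadjusted p under 0.05. By edgeR 3763 of all 14812 genes tested were under that mark. With the GC and length correction DLL3 (adjusted p = 0.0295) and DLK2 (adjusted p = 0.042) passed. They missed the threshold with the replicate block beside the correction (adjusted p = 0.0537 and 0.0583). DLL3 also passed without scramble replicate 3 (-0.45, adjusted p = 0.0396). NOTCH2NLA (-0.18, adjusted p = 0.691) passed without scramble replicate 3 (-0.38, adjusted p = 0.00701). NOTCH4 did not pass the filter on low counts, with 0.598 CPM in knockdown and 0.850 CPM in scramble libraries on average.

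Of 9 genes for receptor cleavage, FURIN, the protease that cuts the receptor precursor in the Golgi, was the only gene called with all 6 libraries. That was 11.1% of the 9, against 11.5% of all genes tested. FURIN rose to 212, 211 and 204 CPM in knockdown libraries, against 114, 122 and 166 CPM in scramble libraries (log2 fold change 0.64, adjusted p = 0.0449 by edgeR). The gamma-secretase genes APH1A (-0.12, adjusted p = 0.735) and PSENEN (0.12, adjusted p = 0.775) did not pass. When scramble replicate 3 was left out, 4 of the 9 rose, among them PSENEN (0.37, adjusted p = 0.00027), and 2 fell. That was 66.7% of the 9, against 49.5% of all genes tested in that fit. The genes of the ADAM proteases, named here after their values were seen, then went opposite ways. ADAM10 had 185, 199 and 183 CPM in knockdown libraries, against 139, 135 and 57.5 CPM in scramble libraries. Its log2 fold change was 0.77 with all libraries (adjusted p = 0.133) and 0.46 without scramble replicate 3 (adjusted p = 2.74e-08). ADAM17 had 111, 117 and 114 CPM in knockdown libraries, against 198, 200 and 89.3 CPM in scramble libraries. Its groups overlapped through scramble replicate 3, with -0.51 (adjusted p = 0.294) when that library was kept and -0.80 (adjusted p = 8.05e-13) when it was left out. The fucosyltransferase gene POFUT1 (0.01, adjusted p = 0.989) and the fringe gene RFNG (-0.59, adjusted p = 0.0789) had no call with all 6 libraries. By edgeR, DESeq2 and limma-voom alike 0 of 5 sugar transfer genes were called there, with 2 at an unadjusted p under 0.05. Of all 14812 genes tested, 3763, 3353 and 3783 were under that mark by these tools, in the order named. The share called by edgeR over all genes tested was 11.5%. Without scramble replicate 3, 3 of the 5 rose and 1 fell, with POFUT1 at 0.18 (adjusted p = 0.00115) and RFNG at -0.40 (adjusted p = 0.000105). RFNG also passed with the GC and length correction (-0.46, adjusted p = 0.00199). Of the 7 genes of the nuclear complex 0 were called with all 6 libraries by edgeR, DESeq2 or limma-voom, and 0 had an unadjusted p under 0.05. Here too edgeR called 11.5% of all genes tested. SNW1 stood at 0.42 (adjusted p = 0.28) and EP300 at -0.05 (adjusted p = 0.905) by edgeR. With scramble replicate 3 left out, 1 of the 7 rose, SNW1 (0.20, adjusted p = 0.00463), and 3 fell, among them EP300 (-0.20, adjusted p = 0.00324). The called share was then 57.1%, against 49.5% of all genes tested.

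Transducin-like enhancer proteins, co-repressors that HES proteins recruit, are encoded by genes of which TLE1 fell and TLE2 rose. TLE1 fell to 55.6, 60.9 and 59.8 CPM in knockdown libraries, against 115, 114 and 176 CPM in scramble libraries (log2 fold change -1.20, adjusted p = 0.00488 by edgeR). TLE2 rose to 10.1, 9.29 and 10.3 CPM in knockdown libraries, against 4.83, 5.20 and 6.97 CPM in scramble libraries (0.81, adjusted p = 0.0276). The other 9 tested co-repressor genes had no call, among them HDAC1 (-0.26, adjusted p = 0.439). The called share of the group was 18.2%, against 11.5% of all genes tested. Without scramble replicate 3 the group had 3 genes that rose and 3 that fell (54.5% of 11, against 49.5% of all genes tested). Among the ubiquitin ligases and endocytic genes, the Deltex genes DTX2 (0.67, adjusted p = 0.0383) and DTX4 (0.99, adjusted p = 0.0197) rose, and DTX3 (-0.86, adjusted p = 0.0202) and NEURL1B (-0.83, adjusted p = 0.021) fell by edgeR. NUMB (-0.15, adjusted p = 0.611) and ITCH (-0.16, adjusted p = 0.812) did not pass, and the remaining genes of this group had no call. The called share of the group was 36.4%, against 11.5% of all genes tested. With scramble replicate 3 left out, 2 genes of the group rose and 4 fell (54.5% of 11, against 49.5% of all genes tested). ITCH then stood at -0.51 (adjusted p = 4.37e-09) and NUMB at -0.23 (adjusted p = 0.000975). NUMB also passed with the GC and length correction (-0.25, adjusted p = 0.0225), but not with the replicate block beside it (adjusted p = 0.068). FURIN, DTX2, TLE2 and DTX4 lost their calls when any library other than scramble replicate 3 was left out, and FURIN and DTX2 also with upper-quartile scaling (adjusted p = 0.0658 and 0.0557). DTX3 and NEURL1B lost theirs when a knockdown library was left out. All 8 were called in the same direction without scramble replicate 3, with log2 fold changes from -2.26 for HES7 to 1.19 for DTX4.

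**Figure D5:**
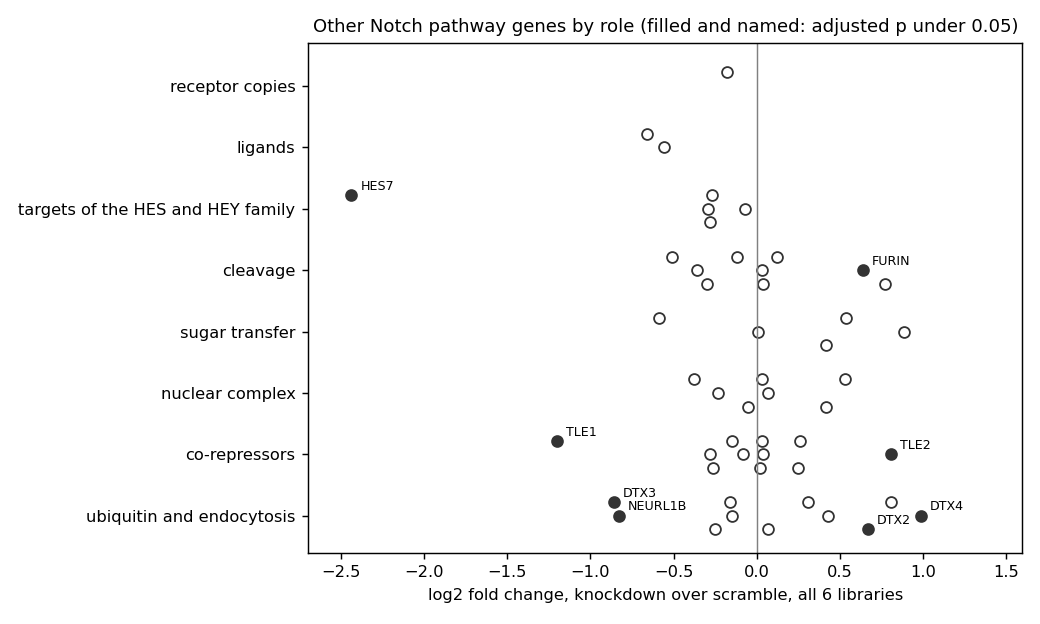
Log2 fold change of knockdown over scramble (x axis, all 6 libraries) for 51 tested genes of the pathway other than the 10 described above, by role (y axis), filled and named where the adjusted p was under 0.05. HES7 at -2.44 and TLE1 at -1.20 lie furthest to the left and DTX4 at 0.99 furthest to the right.

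With all 6 libraries HES4 had the smallest p-value of the Notch genes (0.00233), whereas NOTCH3 had it without scramble replicate 3 (1.04e-17, against 1.95e-12 for HES4) and NOTCH1 without scramble replicate 1 or 2. HES4 was therefore chosen by the fit of all libraries, and the genes whose values across the 6 libraries were most like it were FAM20C, HCN2 and PLXND1. Likeness was the root mean square distance of centred log2 CPM, which was 0.048, 0.056 and 0.059 for these genes, among the 11764 genes that averaged 5 CPM or more. FAM20C, a kinase gene of the secretory pathway, had 64.6, 68.0 and 64.3 CPM in knockdown libraries, against 27.4, 27.8 and 47.5 CPM in scramble libraries. HCN2, an ion channel gene, had 127, 140 and 140 CPM in knockdown libraries, against 58.0, 62.7 and 90.7 CPM in scramble libraries. PLXND1, a semaphorin receptor gene, had 133, 136 and 136 CPM in knockdown libraries, against 60.5, 61.2 and 99.2 CPM in scramble libraries. The choice by likeness fixes that their values follow those of HES4. All 3 fell in the top GC bin, as HES4 did.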

How the data were processed

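Polyadenylated RNA of 6 libraries was sequenced. The authors deposited expected counts from RSEM, an estimate that can hold fractions of reads. The authors also deposited FPKM values, per the file headers, scaled for transcript length and depth. RSEM, Bowtie2, BWA and the build hg19 are named per the submitters' processing notes, with roles, versions and use of strand not given in the sources used here. A gene missing from a file was taken as 0 counts. Entrez IDs were matched to symbols with RefSeq of GRCh38.p14, 20727 of 20824, and the 97 unmatched held 0.147% of counts. GC content came from GENCODE transcripts. Library totals were 10229890 to 10647587 counts, so that 3 counts, the detection floor used, were 0.282 to 0.293 CPM. The interval for DLL1 covers counting error only.

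Rounded expected counts were filtered with filterByExpr (minimum count 10, minimum total 15), scaled by TMM and compared by glmQLFit and glmQLFTest of edgeR 4.0.16 in R 4.3.3, with group as the only term. A gene was called at an adjusted p (Benjamini-Hochberg, over all 14812 tested) under 0.05. The procedure was checked on simulated data, in which all genes had the same dispersion and no library departed from its group as scramble replicate 3 did. The SE is the log2 fold change divided by the square root of F. Alternatives were RLE and upper-quartile scaling, no filter, DESeq2 1.42.0, limma-voom (limma 3.58.1), the replicate number as a block, a spline correction for GC content and length (5 degrees of freedom, 96.1% of tested genes with a GC value) with and without the block, and each library left out.

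The members and lists were chosen with earlier results of these data known. Named are C19orf12, the 10 Notch genes, every called gene and up to 2 uncalled genes of highest FPKM in each role, and the 3 genes most like the Notch gene with the smallest p-value in the fit of all 6 libraries. An uncalled gene that this rule names is not reported here.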

Additional observations from a re-analysis of the deposited data

How the results depend on the processing

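The 14 alternatives kept the direction of C19orf12 and of the 9 tested Notch genes, with JAG2 at 0.00 without scramble replicate 2. Of all genes, 4858 were called with the GC and length correction and 4175 with that correction and the replicate block, against 1708. Of the Notch genes 5 were called with the correction, and 4 with it and the block. Of the other pathway genes 17 were called with it, and 14 with it and the block, against 8. Leaving out 1 library gave 729 to 7439 genes, 0 to 8 Notch genes and 2 to 29 other pathway genes, with the most without scramble replicate 3. In the settings with 0 Notch genes called by edgeR, 3 to 5 of the 9 had an unadjusted p under 0.05. So had 2635 to 3595 of all genes in those settings, with 15001 to 15049 tested. DESeq2 and limma-voom, run on all 6 libraries, called 3 each. Some uncalled pathway genes changed sign. POFUT1 was at -0.032 with upper-quartile scaling and with the GC correction, and at -0.013 with the correction and block. Over the settings that left out 1 library, log2 fold changes ran from -0.093 to 0.183 for POFUT1, -0.382 to 0.033 for NOTCH2NLA, -0.239 to 0.075 for APH1A, -0.037 to 0.369 for PSENEN, -0.203 to 0.054 for EP300 and -0.508 to 0.045 for ITCH. The cause was not tested.

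Same-numbered libraries did not deviate together (correlations -0.024, -0.018 and -0.023 across genes), so the numbers were not taken as pairs. With the replicate number as a block 1654 genes, 2 Notch genes and 7 other pathway genes were called. NOTCH1, FURIN and DTX2 lost their calls there (adjusted p = 0.0764, 0.0548 and 0.0523), and no call was lost there among the other named genes. Of the named genes called with the GC and length correction, NOTCH2, DLL3, DLK2 and NUMB lost that call when the block was added. HES7 and TLE1 kept their calls in all 14 alternatives.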
